A study of Homo sapiens with 6 samples.

Results

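The genes described here are LIF and IL11, which encode secreted cytokines, the receptor genes IL6ST (the shared receptor known as gp130), IL6R, LIFR and OSMR, the transcription factor gene STAT3, and the inhibitor genes SOCS1, SOCS2 and SOCS3. They were chosen by name, and 10 of the 57773 genes in the deposited table carried one of these names. All 10 had enough reads to be tested, along with 22747 genes in all. HepG2, a human hepatocellular carcinoma line used at a low passage number, was plated, left overnight and then given human recombinant TGFB1 ligand at 5 ng/mL (3 cultures) or vehicle (3 cultures) for 3 h. The study's methods describe the medium during treatment as free of serum, in both groups. The groups share the line, the medium and the time, so the comparison is between ligand and vehicle, at a single time and dose. The sequencing lane differed between the groups for culture number 3 (lane 4 with vehicle, lane 5 with TGFβ). The comparison asks which genes of this cytokine pathway respond within hours of TGFβ.

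Cytokines of this family signal through gp130. LIF joins gp130 to LIFR, oncostatin M joins it to OSMR or LIFR, and IL11 and the cytokine IL6 first bind a receptor of their own, IL11RA or IL6R, which then recruits gp130. Kinases of the JAK family bound to the receptors phosphorylate STAT3, which moves to the nucleus and switches on genes that include SOCS3. SOCS3 binds to gp130 and to the kinases and shuts the signal down. In hepatocytes the pathway is known as the driver of the acute phase response, in which the liver secretes fibrinogen, haptoglobin and other plasma proteins.

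The total count on genes lay between 60815385 and 100099136 reads in a culture. Levels are given as CPM, the reads of a gene relative to all reads of its library after TMM scaling. These are bulk samples, in which a change in the share of cells that express a gene and a change in RNA per cell cannot be told apart. The treatment labels were checked on 3 widely known TGFβ targets, PMEPA1, SKIL and SMAD7, and for each of them the 3 TGFβ cultures lay above the 3 vehicle cultures, with log2 fold changes between 1.72 and 4.30. The 8 hepatocyte markers were all expressed, with a summed level between 26690 and 30981 CPM with vehicle and between 25630 and 31320 CPM with TGFβ. Of 5 fibroblast or stellate cell markers, COL3A1, DCN and LUM had at most 14 reads in a culture. COL1A1 and PDGFRB carried the sum of that list, which lay between 13.6 and 14.9 CPM with vehicle and between 23.3 and 34.6 CPM with TGFβ. Its part in the results described here was not tested. Of 4 leukocyte markers, PTPRC and CD3E had 1 and 0 reads over all cultures, and the list's sum, carried by CD68 and CD14, lay between 36.2 and 40.8 CPM with vehicle and between 38.1 and 43.4 CPM with TGFβ. The endothelial markers found in the table, CDH5 and VWF, summed to at most 0.272 CPM in any culture.

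IL11 and SOCS3 rose with TGFβ, and no other gene of the 10 passed the test when the cultures were treated as unpaired. IL11 was 2.84-fold higher and SOCS3 was 4.41-fold higher. At an FDR under 0.05 (edgeR's quasi-likelihood test, Benjamini-Hochberg adjustment over all tested genes), 2 of the 10 genes were therefore higher, where the share over all tested genes was 3.11%. None of the 10 was lower, where the share over all tested genes was 1.01%. At an unadjusted p under 0.05, 3 of the 10, LIF, IL11 and SOCS3, were on the higher side (8.69% of all tested genes) and 2, LIFR and SOCS1, on the lower side (4.97%). After adjustment, DESeq2 called 1 of the 10, LIFR, lower (1.71% of all tested genes) and limma-voom called 0 (0.932%). The median log2 fold change of the 10 genes was 0.01, and that of all tested genes was -0.01. The same-numbered cultures of the groups deviated together, and with the culture number as a block 2 of the 10 genes were higher (8.08% of all tested genes) and 2 were lower (3.75% of all tested genes), the latter being LIFR and OSMR. Groups that did not overlap were found for 4 of the 10 genes: IL11 and SOCS3 lay higher in every TGFβ culture, which held for 10.4% of all tested genes, and LIFR and SOCS1 lay lower in every TGFβ culture, which held for 8.23%.

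**Figure D1:**
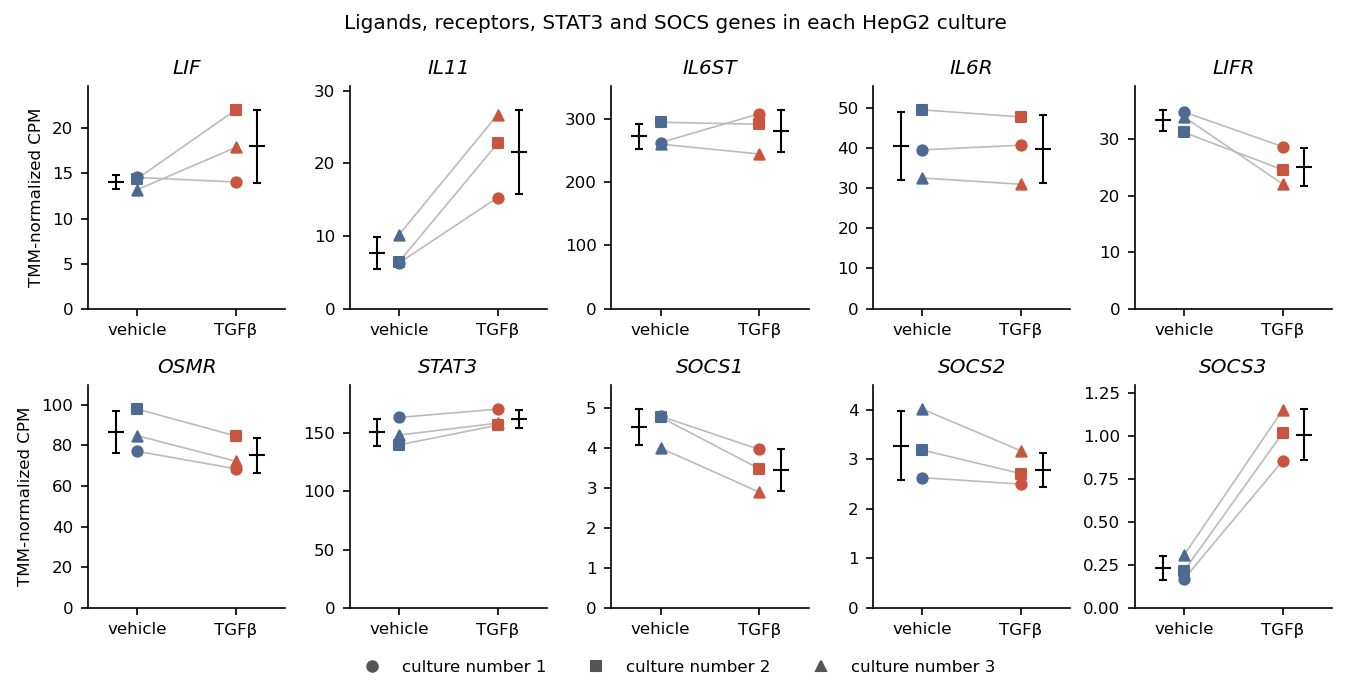
TMM-normalized CPM (linear axis from 0) of the 10 genes in each culture, vehicle in blue and TGFβ in red, with a grey line between cultures of the same number and black bars for mean ± SD of 3 cultures. IL11 and SOCS3 lie higher in all 3 TGFβ cultures than in any vehicle culture, LIFR and SOCS1 lie lower in all 3, and the groups overlap for the other 6 genes.

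IL11 (ENSG00000095752, minus strand, chr19:55875757-55881831 in hg19) encodes a cytokine known for actions on blood cell precursors and on fibroblasts. It had 554, 533 and 626 reads in vehicle cultures 1, 2 and 3, and 1480, 1829 and 1944 reads in TGFβ cultures 1, 2 and 3. After normalization these were 6.28, 6.43 and 10.2 CPM with vehicle and 15.3, 22.7 and 26.7 CPM with TGFβ. The lowest TGFβ culture thus lay above the highest vehicle culture, and culture 3 was the highest of its group in both groups. The mean was 7.62 ± 2.20 CPM (SD, n = 3) with vehicle and 21.6 ± 5.79 CPM (SD, n = 3) with TGFβ. The log2 fold change (TGFβ over vehicle) was 1.50 (its standard error, SE, was 0.23, FDR 0.00543), with a 95% interval for the fold from 1.98 to 4.06. By log2 fold change it ranked 119 among the 707 genes that rose. Within culture numbers 1, 2 and 3 the log2 ratios of TGFβ to vehicle were 1.28, 1.82 and 1.39, and with the block the FDR was 5.29e-06. IL11 no longer passed when vehicle culture 2 (FDR 0.0648) or TGFβ culture 2 (FDR 0.0532) was left out, or with no filter on low counts (FDR 0.129), while the log2 fold change stayed between 1.32 and 1.76 over all 13 alternatives.

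The promoter of IL11 is shown because IL11 is the cytokine gene of the pair that rose. It is taken from RefSeq (GRCh38.p14, minus strand, chr19:55370414-55370713) and runs from 250 bases before to 50 bases after the annotated start. Capitals mark the matches to 2 of the motifs that were searched on both strands, the SMAD motif CAGAC, here as its complement GTCTG starting at -125 from the start site, and the AP-1 motif TGANTCA, here as TGAGTCA starting at -96.
IL11 promoter: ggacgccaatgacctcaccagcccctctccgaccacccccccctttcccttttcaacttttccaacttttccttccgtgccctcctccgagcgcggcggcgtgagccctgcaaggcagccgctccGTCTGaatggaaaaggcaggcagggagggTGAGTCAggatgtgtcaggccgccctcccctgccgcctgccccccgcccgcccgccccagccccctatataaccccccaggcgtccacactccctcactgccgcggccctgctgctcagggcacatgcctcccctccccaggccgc

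The third motif searched, the STAT motif TTCNNNGAA, had no match in this window. Among all 35116 windows of 300 bases in the RefSeq table, 45.3% held CAGAC on either strand, 7.71% held TGANTCA and 7.66% held TTCNNNGAA. The table had windows for 8 of the 10 genes, and for 2 of these, LIFR and SOCS3, it had more than 1. It had none for LIF and SOCS2. Of the 11 windows, 4 held CAGAC (IL11, STAT3, a window of LIFR and a window of SOCS3), 3 held TGANTCA (IL11, IL6R and OSMR) and 2, both of LIFR, held TTCNNNGAA. These matches describe the sequence and were not tested for binding. For the SOCS3 windows, and for the LIFR windows that held a match, the bases after the start were found in no GENCODE transcript of the gene. These windows may therefore miss the promoter in use, and the lack of TTCNNNGAA in those of SOCS3 does not show that its promoter lacks the motif.

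LIF (ENSG00000128342, minus strand, chr22:30636436-30642840) encodes leukemia inhibitory factor, a cytokine known for holding mouse embryonic stem cells undifferentiated. It had 14.6, 14.4 and 13.2 CPM in vehicle cultures 1, 2 and 3, and 14.1, 22.1 and 17.9 CPM in TGFβ cultures 1, 2 and 3. TGFβ cultures 2 and 3 lay above all vehicle cultures, and TGFβ culture 1 lay within them, so the groups overlapped. The vehicle mean was 14.1 ± 0.745 CPM and the TGFβ mean was 18.0 ± 4.0 CPM (SD, n = 3). The log2 fold change of 0.35 (SE 0.15, FDR 0.318) did not pass after adjustment, and the 95% interval for the fold reached from 1.02 to 1.61 before adjustment for the number of genes. The log2 ratios within culture numbers 1, 2 and 3 were -0.05, 0.61 and 0.44. LIF did not pass with the block (FDR 0.120) or under any of the 13 alternatives, where its FDR lay between 0.0714 and 0.815. The gene RP1-102K2.8 lies on the opposite strand and overlaps LIF by 857 bases. It had between 55 and 129 reads in a culture, and since the use of strand in counting is not given in the sources used here, reads of this stretch could not be assigned to a strand.

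Counted per length, IL11 stood below LIF in vehicle cultures 1 and 2 and above it in the other 4 cultures. The ratio of the deposited RPKM of IL11 to that of LIF was 0.641, 0.663 and 1.14 in vehicle cultures 1, 2 and 3, and 1.61, 1.53 and 2.22 in TGFβ cultures 1, 2 and 3. Vehicle culture 3, which had the most IL11 of its group, was the vehicle culture with the ratio above 1.

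Among the receptor genes, LIFR and OSMR were lower with TGFβ when the cultures were compared within their number, while IL6ST and IL6R did not pass in either fit. LIFR (ENSG00000113594, minus strand, chr5:38475065-38608456) encodes the receptor that pairs with gp130 to bind LIF. It had 34.8, 31.2 and 33.9 CPM with vehicle and 28.7, 24.6 and 22 CPM with TGFβ in cultures 1, 2 and 3. Every TGFβ culture lay below every vehicle culture. The fold was 0.754 (95% interval 0.642 to 0.886), a log2 fold change of -0.41 (SE 0.10, FDR 0.0637), which missed the threshold without the block. With the block the FDR was 0.00271, and LIFR fell by 0.41 on the log2 scale. The log2 ratios within culture numbers 1, 2 and 3 were -0.28, -0.34 and -0.62. LIFR also passed with total-count scaling (FDR 0.0295), with no filter (FDR 0.00568), with DESeq2 (FDR 0.013) and with TGFβ culture 1 left out (FDR 0.0251), and did not pass under the other 8 alternatives, with an FDR up to 0.229.

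OSMR (ENSG00000145623, plus strand, chr5:38845960-38945698) encodes the receptor that pairs with gp130 to bind oncostatin M. It had 77.0, 97.8 and 84.7 CPM with vehicle and 68.4, 84.6 and 72.1 CPM with TGFβ in cultures 1, 2 and 3. The groups overlapped, and within each culture number the TGFβ culture was the lower one, with log2 ratios of -0.17, -0.21 and -0.23. The log2 fold change was -0.20 (SE 0.11, FDR 0.489) without the block, and with the block it was -0.20 (SE 0.05, FDR 0.0198). The block was the only one of the 13 alternatives under which OSMR passed. The span of RICTOR overlaps the last 7678 bases of OSMR on the opposite strand.

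IL6ST (ENSG00000134352, minus strand, chr5:55230923-55290821) had 262, 294 and 260 CPM with vehicle and 307, 291 and 244 CPM with TGFβ. The highest and the lowest of the 6 values were both TGFβ cultures. The fold was 1.03, with a 95% interval from 0.888 to 1.20 (log2 fold change 0.05, SE 0.10, FDR 0.904). The interval leaves out a change of the IL6ST count by more than 1.20-fold in either direction, before adjustment for the number of genes. CTD-2031P19.5 (2184 to 3706 reads in a culture) and CTD-2031P19.4 (539 to 1010 reads) lie inside IL6ST on the opposite strand. Whether their exons overlap those of IL6ST was not examined. Without strand, some reads counted to IL6ST could come from them. IL6R (ENSG00000160712, plus strand, chr1:154377669-154441926) had 39.5, 49.4 and 32.5 CPM with vehicle and 40.6, 47.7 and 30.9 CPM with TGFβ. Its values followed the culture number, with culture 2 highest and culture 3 lowest in both groups. The log2 ratios within numbers were 0.04, -0.05 and -0.07, and the fold was 0.982 (95% interval 0.750 to 1.29, FDR 0.971). With the block the SE of the log2 fold change of IL6R was 0.06, where it was 0.17 without it.

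STAT3 (ENSG00000168610, minus strand, chr17:40465342-40540586) encodes the transcription factor on which these receptors converge, and its activity is set by phosphorylation, which RNA counts do not measure. It had 163, 140 and 148 CPM with vehicle and 170, 157 and 158 CPM with TGFβ. The groups overlapped, and the TGFβ culture was the higher one within each number. The fold was 1.08 (95% interval 0.951 to 1.22, FDR 0.684), and it did not pass with the block (FDR 0.210).

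The 3 SOCS genes differed in level and in what was measured with TGFβ. SOCS3 (ENSG00000184557, minus strand, chr17:76352864-76356158) encodes the inhibitor that binds gp130 itself. It had 15, 18 and 19 reads in vehicle cultures 1, 2 and 3 and 83, 82 and 84 reads in TGFβ cultures 1, 2 and 3. This was 0.170, 0.217 and 0.309 CPM with vehicle and 0.857, 1.02 and 1.15 CPM with TGFβ. Every TGFβ culture lay above every vehicle culture, and the vehicle reads were few. The log2 fold change was 2.14 (SE 0.28, FDR 0.00241), with a 95% interval for the fold from 2.84 to 6.85. Among the 707 genes that rose it ranked 44 by log2 fold change. Within culture numbers 1, 2 and 3 the log2 ratios were 2.33, 2.23 and 1.90. SOCS3 passed under all 13 alternatives, with an FDR of at most 0.0180 and a log2 fold change between 1.94 and 2.37.

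SOCS1 (ENSG00000185338, minus strand, chr16:11348262-11350036) encodes an inhibitor that binds JAK kinases directly. It had 4.79, 4.77 and 4.0 CPM with vehicle and 3.96, 3.48 and 2.89 CPM with TGFβ. Every TGFβ culture lay below every vehicle culture, the nearest pair differing by less than the spread within either group. The log2 fold change was -0.39 (SE 0.16, FDR 0.318), and SOCS1 did not pass with the block (FDR 0.0595) or under any other alternative. All 1775 bases of SOCS1 lie inside the span of RMI2, a gene of the opposite strand with 3907 to 7487 reads in a culture. Whether their exons overlap was not examined. Without strand, some reads counted to one could come from the other. RMI2 had a log2 fold change of 0.08 (SE 0.09, FDR 0.822).

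SOCS2 (ENSG00000120833, plus strand, chr12:93963590-93977263) encodes the inhibitor best known for restraining growth hormone signaling. It had 2.63, 3.19 and 4.01 CPM with vehicle and 2.50, 2.71 and 3.17 CPM with TGFβ, and the groups overlapped. The fold was 0.854 (95% interval 0.635 to 1.15, FDR 0.727). For the 4 genes whose groups did not overlap, the two-sided exact permutation test gave P = 0.1, the smallest that 3 cultures against 3 allow. That test cannot reach 0.05 in this design. The study calls the cultures biological replicates, but the labels do not say whether they came from separate thaws or passages, and these tests measure only the spread between these cultures.

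**Figure D2:**
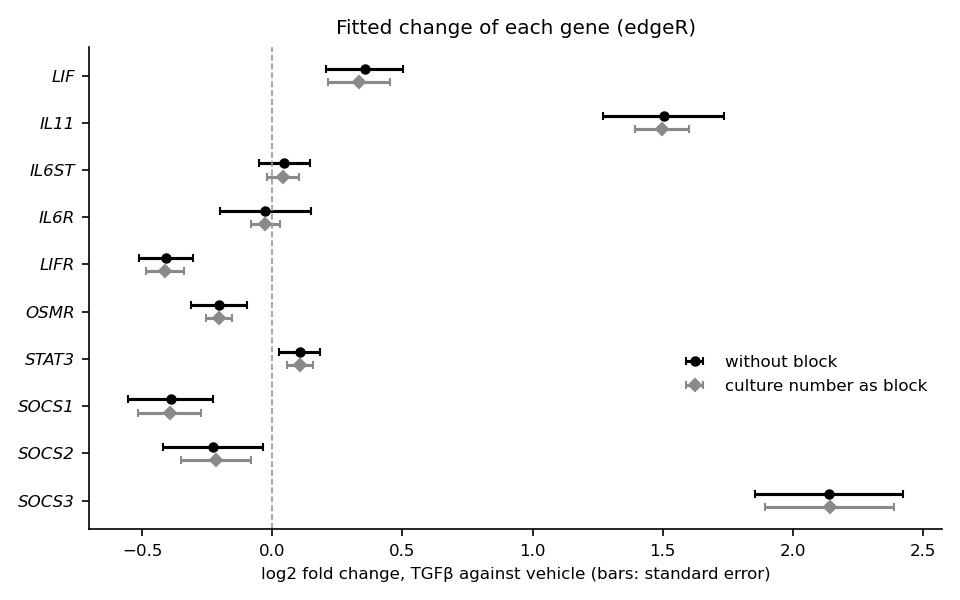
Fitted log2 fold change of each gene, TGFβ against vehicle, with bars of 1 SE (standard error), from edgeR without the block (black circles) and with the culture number as a block (grey diamonds). The estimates of the fits nearly coincide, IL11 at 1.50 and SOCS3 at 2.14 stand apart from the other 8 genes, which lie between -0.41 and 0.35 without the block, and the bars shorten with the block.

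Levels of different genes were compared by the deposited RPKM, which divides the count by the length of the gene. In vehicle cultures the order from high to low was IL6ST (24.2 ± 2.30), STAT3 (14.1 ± 0.897), OSMR (9.99 ± 1.44), IL6R (5.29 ± 1.23), SOCS1 (3.05 ± 0.344), LIF (2.93 ± 0.194), IL11 (2.36 ± 0.651), LIFR (2.32 ± 0.0818), SOCS2 (0.400 ± 0.0831) and SOCS3 (0.0702 ± 0.0208), each as mean ± SD of 3 cultures in RPKM. The neighbors SOCS1 and LIF, LIF and IL11, and IL11 and LIFR had overlapping vehicle ranges and were not separated, while the ranges of all other neighbors in this order were apart. The shared receptor was thus the highest of the 10 per length, above 91.9% of all tested genes, and SOCS3 was the lowest, above 7.04% of them. By the means with TGFβ, IL11 moved from the seventh to the fourth place of the order with 6.48 ± 1.63 RPKM. SOCS3, at 0.297 ± 0.0377 RPKM, stayed in the last place, next to SOCS2 at 0.331 ± 0.0315 RPKM. With TGFβ the ranges of IL11 (4.64 to 7.74 RPKM) and IL6R (3.78 to 6.24 RPKM) overlapped, and so did those of SOCS3 and SOCS2. These neighbors were thus not separated with TGFβ. Within each culture gp130 RNA exceeded that of every receptor it pairs with. The RPKM ratio of IL6ST to OSMR was between 2.32 and 3.47 over the 6 cultures, that of IL6ST to IL6R between 4.06 and 5.45. The ratio of IL6ST to LIFR was 9.63, 12.1 and 9.77 in vehicle cultures 1, 2 and 3. It was 13.7, 15.1 and 14.1 in TGFβ cultures 1, 2 and 3. The groups did not overlap for this ratio, as they did not for LIFR alone, and they overlapped for the ratios to OSMR and IL6R. The ratios were not tested, and no share over other genes was computed for them.

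**Figure D3:**
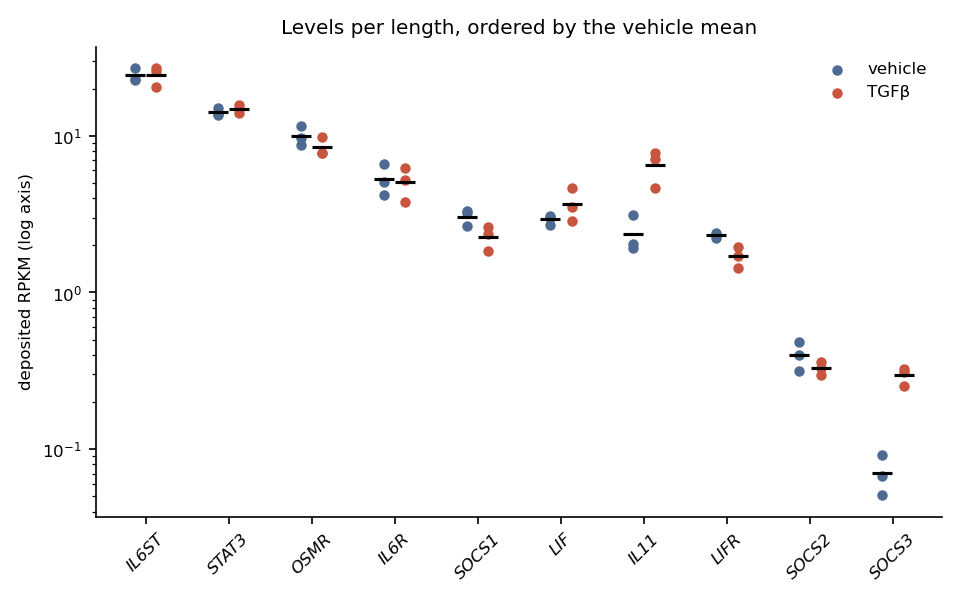
Deposited RPKM of each gene on a log axis, ordered by the vehicle mean, with each culture as a point (vehicle blue, TGFβ red) and black dashes for the group means. IL6ST is highest at 24.2 RPKM and SOCS3 lowest at 0.0702 RPKM with vehicle, and IL11 moves from among LIF and LIFR to above LIF with TGFβ.

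The other genes of the pathway were followed in a list of 58 genes chosen by role, of which 49 had enough reads for testing. At an FDR under 0.05, 8 of the 49 were higher and 1 was lower with TGFβ, beside 3.11% and 1.01% of all tested genes, and 40 did not pass. The median log2 fold change of the 49 genes was 0.05, beside -0.01 over all tested genes. With the block, 14 of the 49 were higher and 6 lower, beside 8.08% and 3.75% of all tested genes, as calls over all genes went from 937 to 2690. The counts by role are read against the same shares.

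All 6 other ligands tested had a log2 fold change above 0, which held for 49.0% of all tested genes. The values ranged from 0.03 (CTF1) to 0.59 (EBI3, with 7 to 33 reads in a culture). None passed, while 2 were higher with the block. Neither of the other receptors tested passed, and IL27RA, the more abundant, had a log2 fold change of -0.17 (SE 0.12, FDR 0.655). IL11RA, the receptor that IL11 binds first, was named here after its values were seen. It had 0.284 ± 0.0126 RPKM with vehicle and 0.272 ± 0.0601 RPKM with TGFβ, and its fold was 0.985 (95% interval 0.715 to 1.36, FDR 0.981).

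Of 7 kinases and adaptors, JAK1 and GAB1 rose and 5 did not pass. With the block, JAK2 was also higher (FDR 0.0390) and SOS1 was lower (FDR 0.00577), both named after their values were seen. JAK1, a kinase bound to gp130, had 142, 145 and 148 CPM with vehicle and 196, 218 and 198 CPM with TGFβ. The groups stood well apart, with a fold of 1.41 (95% interval 1.26 to 1.57, FDR 0.00379), and JAK1 passed under all 13 alternatives. GAB1, an adaptor that links these receptors to other kinases, had a fold of 1.39 (FDR 0.027), and it did not pass when vehicle culture 2, vehicle culture 3, TGFβ culture 1 or TGFβ culture 2 was left out, where the FDR was 0.120, 0.123, 0.105 and 0.0781. None of the 4 other STAT genes passed, and their log2 fold changes lay between -0.13 and 0.08.

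Of the 9 other inhibitors tested, CISH rose and 8 did not pass. CISH, a SOCS family gene known as a target of STAT5, had 2.31, 2.47 and 2.22 CPM with vehicle and 3.77, 4.37 and 4.64 CPM with TGFβ. Its fold was 1.82 (95% interval 1.44 to 2.30, FDR 0.0106), and CISH did not pass when vehicle culture 3 (FDR 0.0647) or TGFβ culture 2 (FDR 0.0566) was left out. Among the 4 SOCS genes of the list, SOCS6 came nearest to the threshold and was named after its values were seen, with a log2 fold change of 0.36 (SE 0.09, FDR 0.0602, and FDR 0.00236 with the block).

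Genes known as targets of STAT3 split in direction, with 4 of 9 higher, 1 lower and 4 that did not pass. With the block, 5 were higher and 2 lower, the additional ones being MCL1 (FDR 0.000288) and CEBPD (FDR 0.0427), named after their values were seen. JUNB, an AP-1 subunit, had 7.71, 7.17 and 8.49 CPM with vehicle and 89.6, 111 and 94.4 CPM with TGFβ, a fold of 12.7 (95% interval 10.6 to 15, FDR 6.29e-07). BCL3, a partner of NF-κB proteins, was 2.43-fold higher (FDR 0.000593), the kinase gene PIM1 was 1.61-fold higher (FDR 0.00248) and the cyclin gene CCND1 was 1.60-fold higher (FDR 0.000689). MYC, a growth-promoting transcription factor, went the other way. It had 134, 141 and 128 CPM with vehicle and 65.4, 68.0 and 57.8 CPM with TGFβ, a fold of 0.474 (95% interval 0.418 to 0.539, FDR 9.92e-05). These 5 genes passed under all 13 alternatives, and other signals are known to set each of them.

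Of the acute phase genes, 12 were tested, 1 was higher and 11 did not pass. The gene that rose was HAMP, which encodes the iron hormone hepcidin and is also known as a target of BMP signaling. It had 2.73, 4.62 and 3.80 CPM with vehicle and 13.5, 6.4 and 14.7 CPM with TGFβ, and TGFβ culture 2 lay closer to the vehicle cultures than to the other TGFβ cultures. HAMP had a fold of 3.10 (95% interval 1.95 to 4.93, FDR 0.013). It did not pass with no filter (FDR 0.256), nor when vehicle culture 1, 2 or 3 or TGFβ culture 1 was left out, where the FDR was 0.0564, 0.0611, 0.101 and 0.0705. The fibrinogen genes FGA, FGB and FGG, chosen here after their values were seen, had log2 fold changes of -0.25, -0.20 and -0.29 with an FDR of 0.726, 0.722 and 0.685, and passed with the block (FDR 0.012, 0.0331 and 0.0154). SERPINA3, named likewise, went the other way, with a log2 fold change of 0.24 (FDR 0.763) and an FDR of 0.0443 with the block. Of the 12 genes, 7 had a log2 fold change above 0 and 5 below, beside 49.0% above 0 over all tested genes. With the block 2 were higher and 3 lower.

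**Figure D4:**
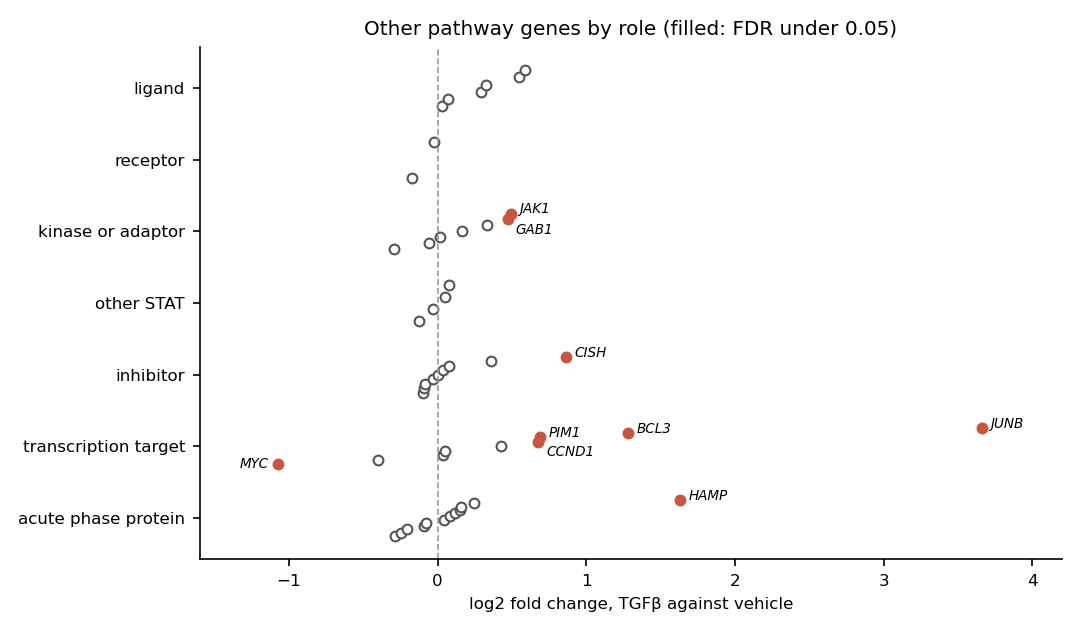
Log2 fold change, TGFβ against vehicle, of the 49 tested genes of the wider list by role, filled in red for an FDR under 0.05 and open otherwise. JUNB at 3.66 is farthest to the right and MYC at -1.08 is the filled point on the left, and the 6 ligands, 2 receptors and 4 other STAT genes hold open points only.

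The tested genes whose profile over the 6 cultures was most like that of LIF were EPHA10, RP11-507K2.2 and RP1-102K2.8. Likeness was measured as the root mean square difference of log2 CPM, each gene centered on its own mean, and was 0.04, 0.07 and 0.08 for these genes. RP1-102K2.8 is the gene that overlaps LIF on the opposite strand. None of them passed the FDR threshold. The genes most like IL11 were RP11-757F18.3, CTD-3224K15.2 and AP006285.1, with differences of 0.14, 0.16 and 0.19, and their log2 fold changes were 1.43, 1.54 and 2.08 (FDR 0.0112, 0.0106 and 0.0275). These were the 3 nearest of all tested genes in either case, chosen by this measure from 6 cultures. AP006285.1 had few reads, with 0.034, 0.0362 and 0.0487 CPM in vehicle cultures 1, 2 and 3. In TGFβ cultures 1, 2 and 3 it had 0.144, 0.162 and 0.206 CPM. The log2 CPM used a prior count of 2, which shrinks the differences of such a gene, so its likeness to IL11 is uncertain.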

How the data were processed

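RNA of 6 HepG2 cultures was sequenced by the authors (TruSeq v2, paired reads) and aligned to hg19. Per the labels and methods, TopHat2 2.0.6, HTSeq and MAPRseq were used. The authors deposited a raw count and an RPKM (count scaled by gene length and library size) per gene and culture. The annotation release is not given in the sources used here, nor is the strand setting. Overlaps between genes were taken from the spans of the genes, and overlap of their exons was not examined. Groups and culture numbers came from the sample titles.

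Counts were fitted with edgeR 4.0.16 (R 4.3.3): TMM normalization, filterByExpr, robust quasi-likelihood test without a block, Benjamini-Hochberg adjustment over 22747 genes (FDR under 0.05). Standard errors and 95% intervals are those implied by the F statistic, intervals being unadjusted. CPM used the TMM library sizes, and log2 CPM a prior count of 2. Averaged over genes, replicates of a group differed beyond counting noise (mean chi-square over tested genes at least 21.0 in each pair). This mean does not describe each single gene. The correlation across genes of deviations from the group means was 0.366, 0.227 and 0.316 for cultures sharing numbers 1, 2 and 3. It was at most 0.0101 otherwise, and the cultures were taken as paired by number. Since deviations within a group sum to 0, positive values for shared numbers push the others down on average. The low values are therefore not separate support for pairing. According to the labels, cultures 1 and 2 shared a lane with their partner (lanes 1 and 3), and cultures 3 did not (lanes 4 and 5). The study's edgeR fit states no block.

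As alternatives the test was run as DESeq2 1.42.0 or limma-voom (limma 3.58.1), the scaling by DESeq2's size factors or by total count, the filter as none or as 10 counts in each of the libraries, and the fit with the replicate block or with single cultures left out. The scripts were run on simulated data with known changes. Named genes were the 10 genes, the list genes passing the threshold, the most abundant gene of a role without one, the 3 nearest profiles of LIF and of IL11, and TGFβ targets. Some genes under this rule are not reported here. The genes, lists and tests were chosen with earlier results of these data known. The marker PECAM1 was not analysed here.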

Additional observations from a re-analysis of the deposited data

How the results depend on the processing

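Of the 10 genes, 2 passed the FDR threshold, with a range from 1 to 3 when single cultures were left out. It was 1 without vehicle replicate 2 or TGFβ replicate 2, where IL11 missed. With the replicate block, 4 passed, 2 of them lower, and cultures paired by number shared their deviations. With total-count scaling, with DESeq2 and with no filter, 1 gene, LIFR, was lower, and with no filter 1 was higher. Higher genes ranged from 1 to 2 and lower genes from 0 to 1 with single cultures left out. The wider list had 9 calls, 20 with the block and between 6 and 10 with a culture left out. Over all genes there were 937 calls, 2690 with the block, 1381 with DESeq2, 1206 with no filter, and between 485 and 998 with a culture left out, the lowest without vehicle replicate 3. With single cultures left out, the log2 fold change of IL6R ranged from -0.19 to 0.14, above 0 without vehicle replicate 2 (0.14) or TGFβ replicate 3 (0.12), and that of IL6ST from -0.030, without TGFβ replicate 1, to 0.13. The other 8 genes kept their direction under all 13 alternatives. Apart from the genes named, the block changed no call of the 10. The causes of these moves were not tested. SOCS3 rests on 52 reads with vehicle, so its fold is the least precise.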

Other observations

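LIFR-AS1, a gene of the strand opposite to LIFR, was looked at after its counts were seen. The spans of these genes overlap by 51569 bases, most of which are not counted sequence of LIFR-AS1, whose deposited length is 5098 bases. Whether their exons overlap was not examined. It had 1.11, 1.03 and 1.61 CPM in vehicle cultures 1, 2 and 3 and 0.733, 0.746 and 0.988 CPM in TGFβ cultures 1, 2 and 3. Every TGFβ culture lay below every vehicle culture, as for LIFR. Its log2 fold change of -0.60 (standard error 0.25, FDR 0.308) did not pass, also with the block (FDR 0.0727), and reads of the shared stretch could not be assigned to a strand. Among the ligands of the wider list, IL6 and IL31 had 0 reads in all 6 cultures, and OSM had 0 reads in 5 cultures and 4 in TGFβ replicate 3. The receptor gene CNTFR had 2 reads, both in TGFβ replicate 3. CRP, a classical acute phase gene, had 0 reads in all cultures.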
